A study of Caenorhabditis elegans with 2 samples.

Results

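The genes described here encode the hydrolytic and antimicrobial proteins of the C. elegans gut and lysosome. They were chosen by name from the protein-coding genes of the WBcel235 annotation: names starting with cpr-, cpl- or cpz- (cysteine proteases), asp- (aspartic proteases), lys- or ilys- (lysozymes) and spp- (saposin-like proteins), plus ges-1. The rule gave 76 of 19973 protein-coding genes, of which 11 were cysteine proteases, 17 aspartic proteases, 16 lysozymes, 31 saposin-like proteins and 1 the ges-1 gene. Binding of T20F7.1, a zinc finger protein, was measured near them by chromatin immunoprecipitation with sequencing (ChIP-seq). The animals were strain OP754, which carries the transgene wgIs754 (T20F7.1::TY1::EGFP::3xFLAG with unc-119(+)) in the background unc-119(tm4063). Whole L4 larvae at 48 hours, of mixed sex and grown from starved L1 larvae, were precipitated through the GFP tag in 2 biological replicates. There was 1 group, and no control, untagged strain or other stage was analysed here. The labels do not give the promoter or the cells in which the fusion was expressed, so no region below is assigned to the intestine or to any other tissue.

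C. elegans feeds on bacteria, which are ground in the pharynx and broken down in the intestinal lumen. Cysteine and aspartic proteases of the cathepsin kind are secreted into that lumen or act inside lysosomes. Lysozymes cut the bacterial cell wall, and some saposin-like proteins, called caenopores, open holes in bacterial membranes. Many of these genes are expressed in the intestine under GATA factors such as ELT-2, whose binding site has the core TGATAA, and ges-1, the gut esterase gene, is a classic marker of that tissue. Several are also known to change during infection.

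The deposited data are lists of regions. An IDR peak is a region that the authors kept by the irreproducible discovery rate, a procedure that compares ranks between lists of regions. The authors name this list optimal, and a region in it can rank low in 1 replicate, as that of cpr-1 did. A candidate is any region, background included, that entered this procedure, with 30000 in the pooled list and 30000 in each replicate. A gene was counted as having a promoter region where the summit lay from 500 bp upstream to 100 bp downstream of the annotated gene start. The signal value is the height that the authors gave to each region. Its scale is not given in the sources used here and no read depth is known. The pooled value was close to the sum of both replicate values, so pooled and replicate values are on different scales. With 2 replicates of 1 group no test between conditions was possible, and the genes are described by their values and counts beside those of all genes. The labels list the replicates as separate biosamples but do not say that they came from separate cultures, so their spread may be technical in part.

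An IDR peak lay in the promoter of 7 of the 76 genes (9.21%), against 7.31% of all protein-coding genes, a share close to that background. These 7 genes were spp-5, cpr-4, lys-8, spp-3, cpr-1, asp-3 and cpl-1. Their peaks were weak: the pooled signal values had a median of 131 and a range of 97.7 to 151, whereas the median over all 1460 genes with an IDR promoter peak was 189. All 7 were below that median, and 903 of the 1460 genes had a stronger peak than spp-5, the strongest of the 7. The −log10 q in the authors' list was under 2 for each of them, with a highest value of 1.91, while 899 of the 1460 genes (61.6%) reached 2. None of the 7 summits lay in the promoter window of another protein-coding gene, whereas 871 of the 1460 genes (59.7%) had a window of their own.

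The sequence at 5 of these summits is shown because it holds the GATA core within 50 bp of the summit. Each stretch is 101 bases of WBcel235 centred on the pooled summit and read 5′ to 3′ on the strand of the gene, and capitals mark TGATAA, its reverse complement TTATCA, or the E-box core CACGTG.
spp-5, chrX:7320557-7320657, minus strand: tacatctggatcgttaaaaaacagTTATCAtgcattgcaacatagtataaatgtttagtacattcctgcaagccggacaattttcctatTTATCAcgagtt
spp-3, chrX:7315470-7315570, minus strand: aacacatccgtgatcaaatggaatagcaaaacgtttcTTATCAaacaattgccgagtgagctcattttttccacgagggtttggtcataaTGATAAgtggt
cpr-4, chrV:6614460-6614560, plus strand: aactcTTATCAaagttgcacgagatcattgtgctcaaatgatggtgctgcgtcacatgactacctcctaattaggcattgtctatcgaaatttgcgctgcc
cpr-1, chrV:11975347-11975447, plus strand: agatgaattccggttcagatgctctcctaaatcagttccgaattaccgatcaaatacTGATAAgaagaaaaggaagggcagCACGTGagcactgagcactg
asp-3, chrX:6790609-6790709, plus strand: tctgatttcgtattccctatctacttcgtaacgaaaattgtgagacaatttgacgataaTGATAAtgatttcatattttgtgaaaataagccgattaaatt

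In spp-5 and spp-3 the core occurred 2 times in the stretch, and in cpr-4, cpr-1 and asp-3 once. Its first base lay 7 bp from the summit in cpr-1, 9 bp in asp-3, 13 and 40 bp in spp-3, 26 and 39 bp in spp-5 and 45 bp in cpr-4. No core was found within 50 bp of the summits of lys-8 and cpl-1. A match describes the letters of the reference and is not evidence of a bound site.

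Cysteine proteases had IDR peaks at 3 of 11 genes, which is 27.3% of a small family, against 7.31% of all genes. Among the 2586 strongest candidates of replicate 1 alone, as many as there are IDR peaks, the count was 1 of 11 (9.09%, against 7.32%). The peak of cpr-4, which encodes a cathepsin B-like protease, had a signal value of 139 in the pooled list, 70.6 in replicate 1 and 68.7 in replicate 2. Its summit lay 164 bp upstream of the gene start, at position 6614510 of chromosome V in intergenic sequence, and the replicate summits were 8 bp apart. The values of cpr-4 thus differed little between the replicates, by -0.04 on the log2 scale (replicate 2 over replicate 1).

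The peak of cpr-1, a gut cysteine protease gene, behaved differently. It had 109 in the pooled list, 22.8 in replicate 1 and 83.6 in replicate 2, a log2 ratio of 1.88. The region ranked 1124 of 30000 in replicate 2 and 19681 in replicate 1, so the peak rests on replicate 2. Among the 1426 genes with an IDR promoter peak and a candidate in each replicate, 2 had a log2 ratio as high as this, cpr-1 included. The summits of both replicates were nonetheless 2 bp apart, and the pooled summit lay 154 bp upstream, inside an exon of the non-coding RNA gene C52E4.17 on the opposite strand.

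The peak of cpl-1, which encodes a cathepsin L-like protease needed for embryonic development and yolk processing, was the weakest of the 7. It had a signal value of 97.7 in the pooled list, 44.6 in replicate 1 and 49.9 in replicate 2, and its summit lay 37 bp upstream of the gene start, the nearest of the 7. The pooled region ranked 2468 among the 2586 IDR peaks. Of the other cysteine protease genes, cpz-2 had a candidate of 70.4 and cpr-6 one of 35.3 in the pooled list, both outside the IDR list. The strongest candidates of cpz-2 in the replicates had summits 236 bp apart. No pooled candidate lay in the window of cpr-2, cpr-3, cpr-5, cpr-8, cpr-9 or cpz-1. The start of cpr-9 had a pooled candidate of 81.1 at 124 bp downstream, just past the window, and an IDR peak came within reach of it when the window was extended to 1000 bp upstream.

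Aspartic proteases had IDR peaks at 1 of 17 genes (5.88%, against 7.31% of all genes). Among the 2586 strongest candidates of replicate 2 alone the count was 0 of 17 (against 7.35%). The gene with the IDR peak was asp-3, a cathepsin D-like gene. Its product is known, together with asp-4, for its part in the necrotic death of neurons. Its signal value was 98.2 in the pooled list, 54.7 in replicate 1 and 44.5 in replicate 2, and the summit lay 405 bp upstream, the farthest of the 7. Pooled candidates outside the IDR list were found at 6 more: asp-9 (88.3), asp-5 (77.4), asp-2 (70.7), asp-6 and asp-12 (57.1 each) and asp-1 (50.6). The genes asp-6 and asp-12 point away from each other and share 1 summit between them, with 20.9 in replicate 1 and 41.9 in replicate 2. The asp-4 window held no pooled candidate and 1 candidate of 23.1 in replicate 2. The other 9 genes had no pooled candidate, and among them asp-15, asp-16 and asp-17, which lie in a row on chromosome V, were 5231, 7479 and 12762 bp from the nearest one.

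Lysozymes had IDR peaks at 1 of 16 genes (6.25%, against 7.31% of all genes), at lys-8, a lysozyme gene of the immune response. Among the 2586 strongest candidates of replicate 1 alone the count was 2 of 16 (12.5%, against 7.32%). The signal value of lys-8 was 134 in the pooled list, 74.1 in replicate 1 and 64.1 in replicate 2, and the replicate summits lay 2 bp apart, and the pooled one 270 bp upstream. The strongest lysozyme candidate outside the IDR list was ilys-5, of the invertebrate type. It had 92.0 in the pooled list, 63.9 in replicate 1 and 32.3 in replicate 2, at 88 bp downstream of the gene start within its own coding sequence. Replicate 2 was the lower one there, with a log2 ratio of -0.99. Candidates at lys-10 (54.7), lys-2 (52.5), lys-4 (44.4) and ilys-4 (33.3) were lower, and that of ilys-4 lay in an intron of atic-1. No pooled candidate was present at lys-1, lys-3, lys-5, lys-6, lys-7, lys-9, ilys-1, ilys-2, ilys-3 or ilys-6. The start of ilys-3, a lysozyme gene known for its part in breaking down bacteria, was 10332 bp from the nearest pooled summit, and that of lys-9 was 76531 bp away.

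Saposin-like genes had IDR peaks at 2 of 31 (6.45%, against 7.31% of all genes), spp-5 and spp-3, both caenopore genes. The peak of spp-5, whose product permeabilises bacterial membranes in the gut, had signal values of 151 in the pooled list, 76.0 in replicate 1 and 66.5 in replicate 2, with its summit 253 bp upstream. That of spp-3 had 131, 78.9 and 63.1 in the same order and lay 167 bp upstream. Both were somewhat higher in replicate 1, by less than a log2 unit. Among the 2586 strongest candidates of replicate 1 alone the family count was 4 of 31 (12.9%, against 7.32% of all genes). Outside the IDR list, 13 more saposin-like genes had a pooled candidate. The strongest of these were spp-18 (89.5), spp-2 and spp-6 (86.7, 1 shared summit) and spp-8 (80.9), and the weakest was spp-26 (35.4). At spp-8 the replicates differed by more than 2-fold, with 53.5 in replicate 1 and 25.3 in replicate 2. The 16 without a pooled candidate included spp-1, a caenopore gene, and spp-10, the prosaposin-like gene, which had a single candidate of 19.4 in replicate 1.

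**Figure D1:**
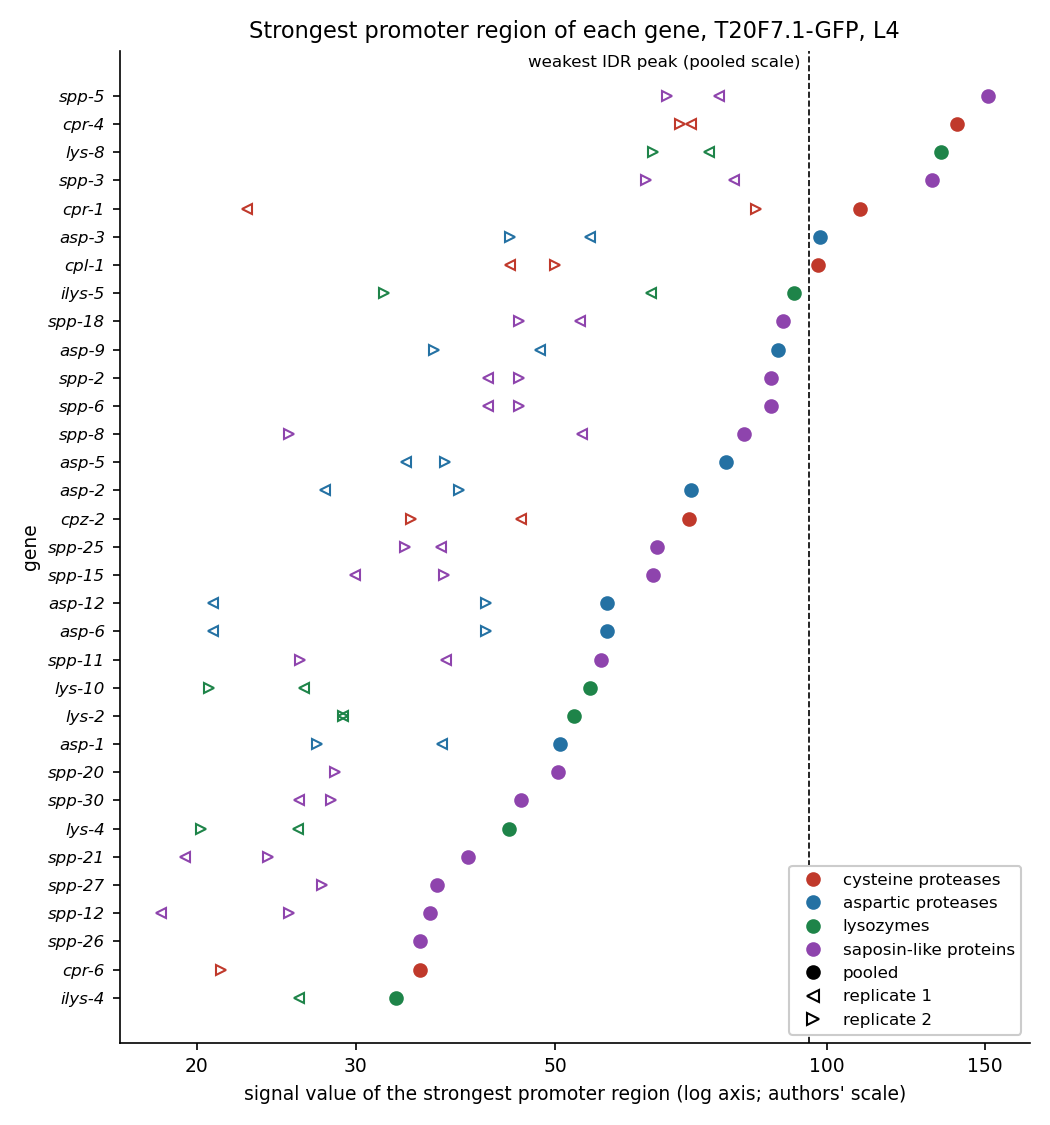
Signal value (log axis, the authors' scale) of the strongest promoter region of each of the 33 genes with a pooled candidate, in the pooled list (filled circles), replicate 1 (left-pointing triangles) and replicate 2 (right-pointing triangles), coloured by family. The dashed line is the weakest IDR peak of the pooled list, at 95.6: 7 genes lie to its right, and cpr-1 has the widest gap between its replicates, with 22.8 in replicate 1 and 83.6 in replicate 2.

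The ges-1 gene had no region in any list. Its start was 11730 bp from the nearest pooled summit, a candidate with a signal value of 42.3. The promoter from 250 bp upstream to 50 bp downstream of this start held 0 copies of TGATAA. So did those of ilys-5, asp-1 and other members with a pooled candidate. The word was in 24 of the 33 members with a pooled candidate (72.7%) and in 29 of the 43 without one (67.4%).

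Around the limit of the IDR list the genes formed a continuous series. The weakest inside were asp-3 (rank 2444 among pooled regions) and cpl-1 (rank 2468), and the strongest outside were ilys-5 (rank 2778), spp-18 (rank 2918) and asp-9 (rank 3003).

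The share with a candidate stood further above that of all genes than the share with an IDR peak. A pooled candidate lay in the promoter of 33 of the 76 genes (43.4%), against 26.3% of all protein-coding genes. A candidate was present in each replicate list for 28 of 76 (36.8%), against 18.9% of all genes, and all 28 were among the 33. By family the pooled share was 5 of 11 cysteine proteases, 7 of 17 aspartic proteases, 6 of 16 lysozymes and 15 of 31 saposin-like genes, or 37.5% to 48.4%. Their median signal value was 64.8 (quartiles 50.3 and 89.5) for the 33 genes and 60.1 (44.4 and 106) for the 5254 genes with a pooled candidate, and the highest value was 151 against 6064. The shares are counts of genes chosen by name, and no test was made on them.

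**Figure D2:**
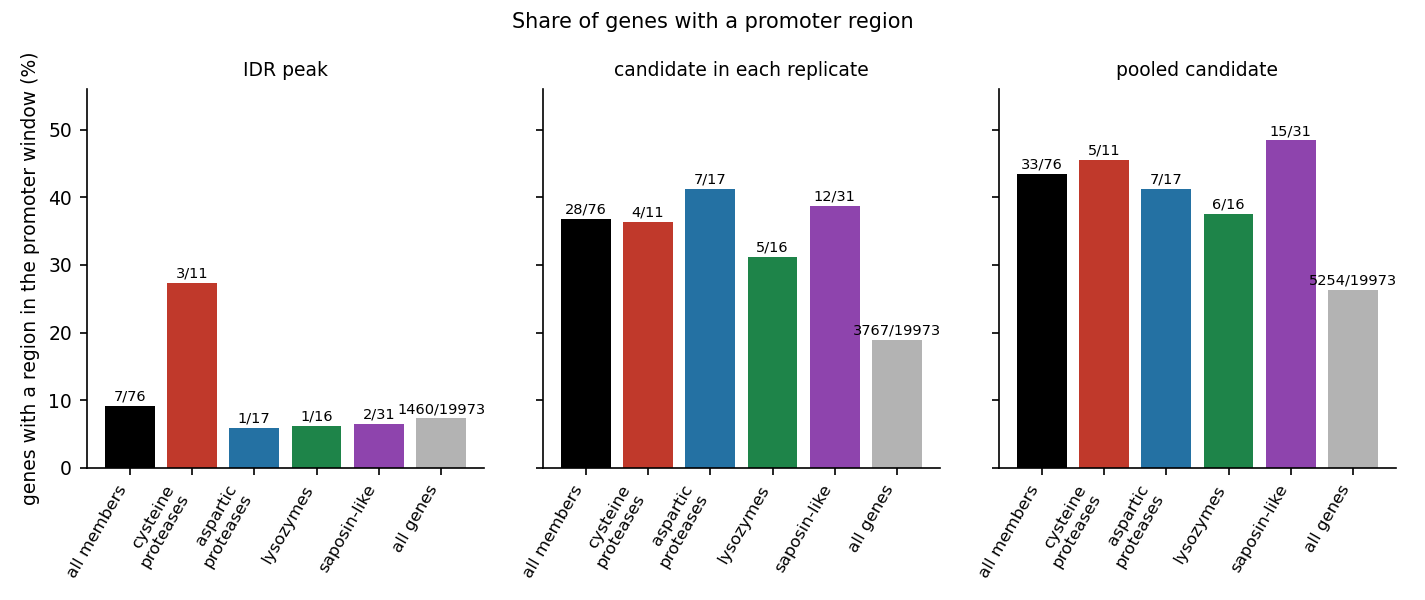
Percent of genes with a region in the promoter window, for all 76 genes, each family and all protein-coding genes, with counts above the bars: IDR peaks at left, a candidate in each replicate in the middle and pooled candidates at right. The 76 genes stand near all genes for IDR peaks (9.21% against 7.31%) and above them for pooled candidates (43.4% against 26.3%).

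When each replicate was ranked alone and its 2586 strongest regions kept, 8 of the 76 genes had a promoter region in replicate 1 (10.5%, against 7.32% of all genes) and 5 in replicate 2 (6.58%, against 7.35%). Both replicates had one for 4 genes, spp-5, cpr-4, lys-8 and spp-3 (5.26%, against 5.85% of all genes). These 4 are the members with the highest pooled values, and their replicate values differed by a log2 ratio of -0.04 to -0.32. The gene cpr-1 was within the strongest regions of replicate 2 only, asp-3 of replicate 1 only, and cpl-1 of neither.

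Over the 28 genes with a candidate in each replicate, the log2 ratio (replicate 2 over replicate 1) had -0.09 as its median, with values from -1.08 to 1.88. Over the 3767 such genes in all the median was 0.05. The replicates differed by more than 2-fold at 4 of the 28 genes (14.3%), namely cpr-1, spp-8, asp-6 and asp-12, the last pair sharing a region, and at 166 of the 3767 (4.41%). The replicate summits of the 28 genes were a median of 51.5 bp apart, against 34 bp over all such genes, and those of the 7 genes with IDR peaks 8 bp, against 15 bp over all genes with IDR peaks and a candidate in each replicate. 

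**Figure D3:**
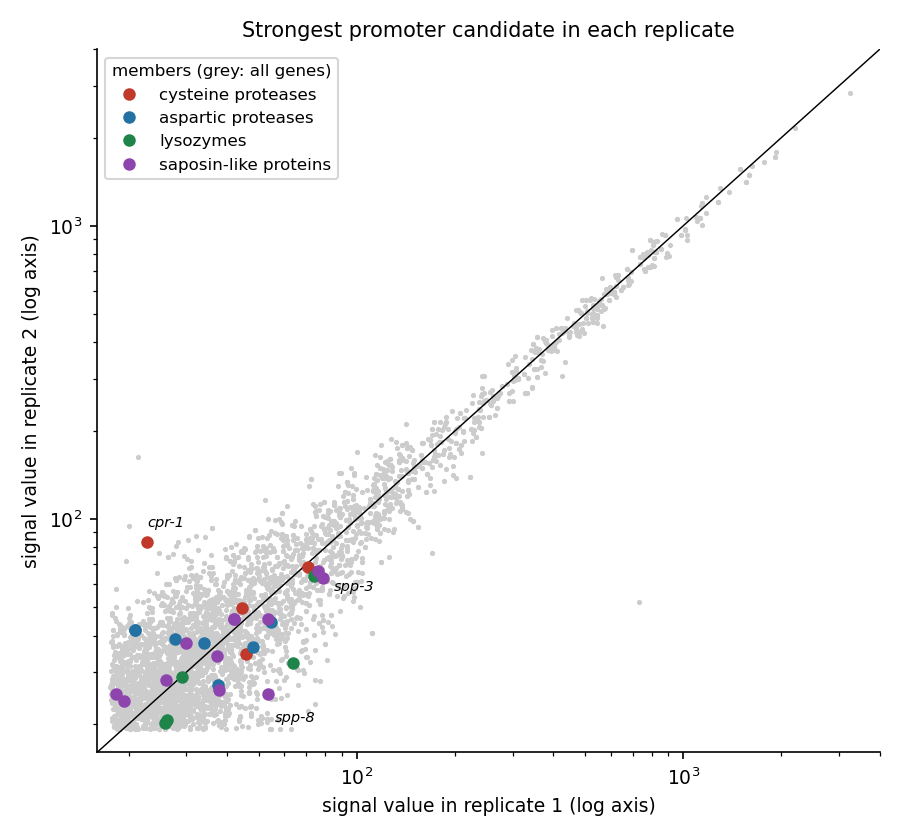
Signal value of the strongest promoter candidate in replicate 1 (x) and replicate 2 (y), both on log axes, for all 3767 genes with a candidate in each replicate (grey) and the 28 members (colours by family), with the line of equal values. No member reaches 100 in either replicate, and cpr-1 stands above the line with 22.8 and 83.6.

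Candidate summits lay mostly upstream of the genes. Of the 33 genes, 29 had the summit upstream of the start and 20 of these within 250 bp, with a median position of -167 bp, against -212 bp over all genes with a pooled candidate. The summit was intergenic in 23 of the 33. The exceptions included spp-20, spp-26 and spp-27, neighbours on chromosome V whose weak summits (50.3, 35.4 and 37.0) lay in introns of twk-10, and spp-12, whose summit lay in the 3′ UTR of a neighbouring gene. No replicate 1 candidate was found for spp-20, spp-26 or spp-27. For 28 of the 33 (84.8%) no other protein-coding gene shared the summit, close to the 80.5% over the 5254 genes with a pooled candidate. The others were spp-2 with spp-6, asp-6 with asp-12, and spp-15 with cof-2, which is not a member. The window itself reaches farther upstream than downstream, and no share over all genes is given for upstream or intergenic summits.

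A compact group of saposin-like genes on the X chromosome held both IDR peaks of the family. The genes spp-3, spp-2, spp-6, spp-4 and spp-5 lie in this order within 5386 bp (7314969 to 7320354), with spp-6 on the plus strand and the others on the minus strand. The spp-3 summit at position 7315520 lies between spp-3 and spp-2, and the spp-5 summit at 7320607 lies past the last gene. The start regions of spp-2 and spp-6 share the summit at 7316944, with 86.7 in the pooled list, 42.1 in replicate 1 and 45.6 in replicate 2, below the IDR limit. The spp-4 window held no candidate in any list, and the nearest pooled summit, of 36.4, lay 811 bp upstream of its start. Within this group 4 of 5 genes thus had a promoter candidate in each of the 3 candidate lists, spp-2 and spp-6 through 1 shared region. The share was 36.8% over all members and 18.1% over all protein-coding genes.

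**Figure D4:**
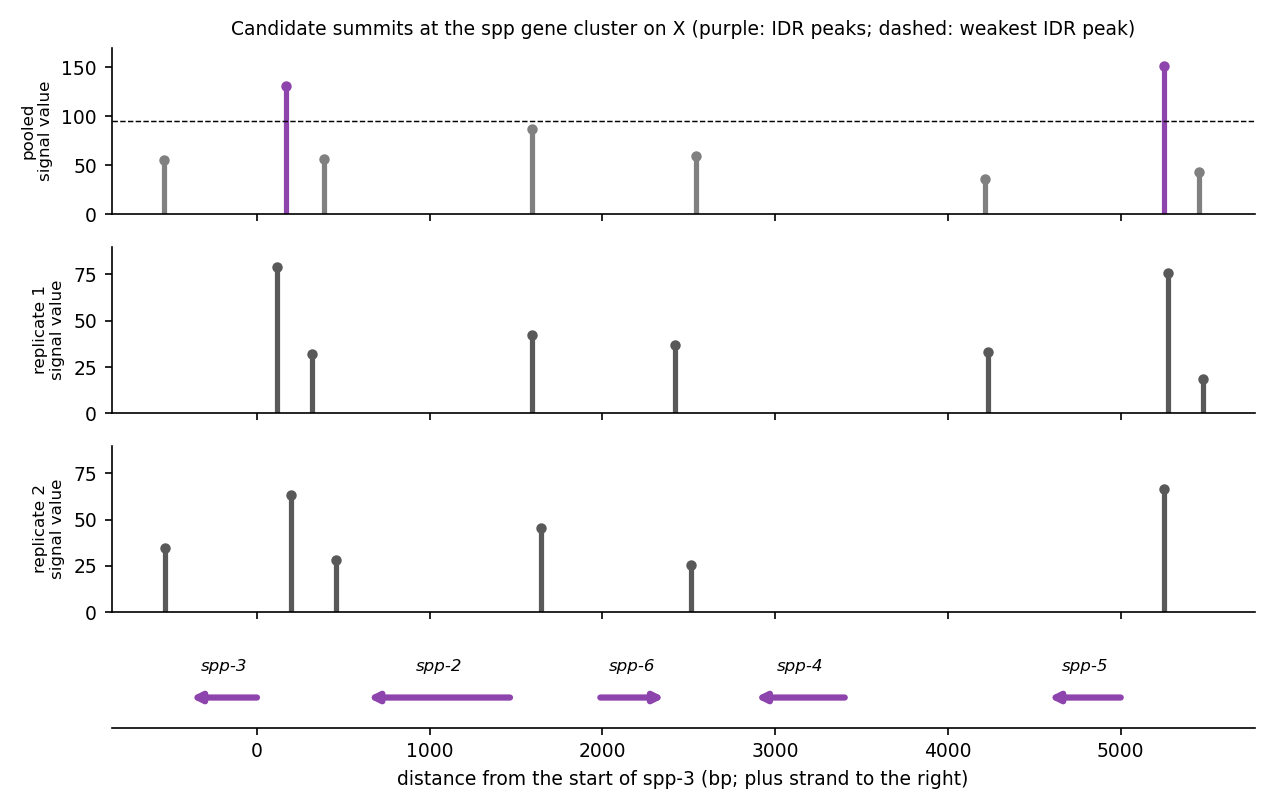
Candidate summits at the spp gene group on X, with signal value (y) against distance from the start of spp-3 in bp (x), for the pooled list, replicate 1 and replicate 2, and the genes as arrows in the direction of transcription. IDR peaks are purple and the dashed line marks the weakest IDR peak; those at spp-3 (131) and spp-5 (151) pass it, and the summit shared by spp-2 and spp-6 (86.7) does not.

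The position of a gene on its chromosome went with these counts. In the middle 50% of the autosomes 22 of 34 members (64.7%) had a pooled candidate, against 36.6% of all genes there. In the outer parts 2 of 26 members (7.69%) had one, cpl-1 and asp-1, against 12.5% of all genes there. On X it was 9 of 16 (56.2%), against 28.9%. IDR peaks were found at 3 of the 34 central members (8.82%, against 10.6% of all genes there), 1 of the 26 outer members (3.85%, against 3.70%) and 3 of the 16 on X (18.8%, against 5.79%). The higher share of candidates over all members therefore came from the central autosomes and X, and was not seen in the outer parts. On X the shares lean on 1 locus: spp-3 and spp-5, with IDR peaks, lie within the same 5386 bp. There spp-2 and spp-6 share 1 pooled summit. Of the 43 members without a pooled candidate, 15 (34.9%) lay more than 10 kb from any pooled summit, against 31.7% of all genes without one.

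Many of these genes are tandem copies, at which reads can match more than 1 place. A start of the same family lay within 10 kb for 37 members, of which 15 had a pooled candidate (40.5%) and 2 an IDR peak (5.41%). For the other 39 the counts were 18 (46.2%) and 5 (12.8%). The shares over all genes were 26.3% and 7.31%. The promoter windows themselves were mostly unique: in 57 of 76 all words of 31 bases occurred once in the nuclear genome, and the lowest share was 68.1%, at asp-17. Over all protein-coding genes 15021 of 19973 windows were fully unique, a similar share, and 657 (3.29%) were under 50% unique. The 7 windows with IDR peaks were unique throughout. Fully unique windows made up 29 of the 33 with a pooled candidate and 28 of the 43 without one. How repeated sequence bears on the candidate counts was not tested.

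The promoters of the members, from 250 bp upstream to 50 bp downstream, were compared by the letters they hold on either strand. The GATA core TGATAA was present in 53 of 76 (69.7%), against 30.3% of all protein-coding promoters, at a median GC content of 35.2% and 34.2%. It was found in 24 of the 33 members with a pooled candidate (72.7%) and in 29 of the 43 without one (67.4%). All 7 members with an IDR peak held it, whereas over all genes with an IDR promoter peak the share was 28.8%, close to that of all promoters. The IDR summits of asp-3, lys-8 and spp-5 lay outside this window, so this count does not place the core at the peaks. Within 50 bp of the summit the core was present at 5 of the 7 IDR peaks of members and at 151 of the 1188 IDR peaks in promoters (12.7%). For the strongest candidates it was 13 of 31 distinct summits of members (41.9%) against 16.3% of 4745 over all genes. The median GC content around the summits was 35.6% for the 7 IDR peaks, below the 40.6% of the 1188. For the candidates it was 32.7% and 31.7%. How GC content bears on these shares was not tested.

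Summit words are words of 6 bases that earlier results of these data gave as frequent at all summits of the experiment. Their shares over all genes with IDR peaks are therefore high in part by that choice, and are no independent comparison. ACGCGC was present in 0 of 76 promoters, against 15.0% of all genes with an IDR promoter peak and 5.93% of all promoters. ACGCAG was present in 5 (6.58%, against 13.6% and 8.24%) and GACGCA, which overlaps it by 5 letters, in 10 (13.2%, against 16.7% and 8.80%). Within 50 bp of the 7 IDR summits of members, ACGCGC was present at 0, ACGCAG at 1 (14.3%) and GACGCA at 1 (14.3%), against 14.6%, 11.2% and 12.0% of IDR peaks in promoters. The ACGCAG and GACGCA matches overlap in the same stretch at cpr-4, so they are not separate sites. CACGTG, the E-box core bound by factors such as HLH-30, was present in 7 of 76 promoters (9.21%, against 5.84% of all).

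**Figure D5:**
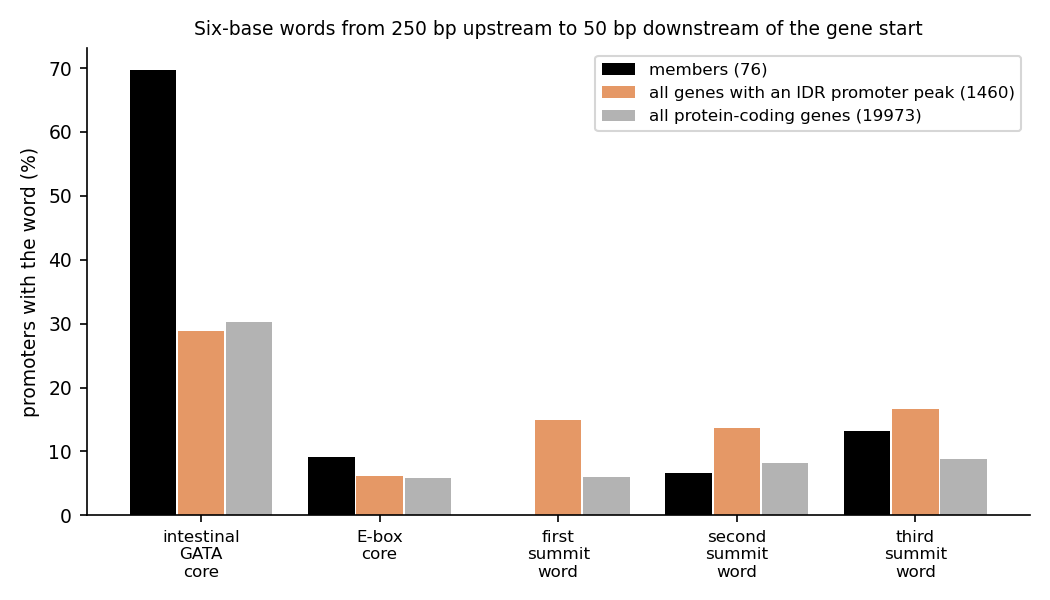
Percent of promoters (250 bp upstream to 50 bp downstream of the gene start) that hold each word of 6 bases on either strand, for the 76 members, all genes with an IDR promoter peak and all protein-coding genes. From left to right they are the GATA core TGATAA, the E-box core CACGTG and the summit words, of which ACGCGC is drawn as the first, ACGCAG as the second and GACGCA last. The GATA core is in 69.7% of members and 30.3% of all genes, and the first summit word in 0 of 76 members.

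Genes of the same pathways, listed by name, were examined beside the members. Of 15 regulators of gut and lysosomal genes, 5 had an IDR promoter peak (33.3%, against 7.31% of all genes): nhr-49 (122), nhr-80 (107), daf-16 (104), mxl-3 (100.5) and elt-2 (96.5). The elt-2 peak, at the gene of the main intestinal GATA factor, was near the limit of the list at rank 2530, with 26.2 in replicate 1 and 59.9 in replicate 2. That of mxl-3, a repressor of lysosomal lipase genes, had 71.9 and 32.6, with its summit 50 bp downstream. Both thus differed by more than 2-fold between the replicates, in opposite directions. No region was found at hlh-30, elt-7, skn-1 or pha-4 in the pooled list or in either replicate.

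The inhibitors of the proteases, cystatins and serpins, had IDR peaks at 0 of 8 genes. A pooled candidate of 51.4 lay at cpi-1, a cystatin gene, and none at cpi-2, which had one of 46.2 in replicate 1. Lysosomal hydrolases and membrane proteins had 3 of 47 (6.38%), at imp-2 (345), aman-2 (169) and lipl-2 (118), a share near the background. The window of imp-2 shares its summit with enpl-1. Other proteases and peptide transporters had 3 of 52 (5.77%), at try-5 (1246), dpf-3 (174) and pcp-1 (119). The peak at try-5, which encodes a seminal fluid protease, had 624 in each replicate and lies in the window of K07B1.7 too.

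Lectins and small antimicrobial peptides had 2 of 298 (0.671%), clec-265 (124) and fipr-3 (97.0), and pooled candidates at 16.8% of the list. Pooled candidates stood at 43.4% of the members, against 40.4% of the lysosomal list and 17.3% of the other proteases and peptide uptake genes. They stood at 9 of 15 regulators, 4 of 8 inhibitors and 3 of 6 vitellogenins, which are larger shares than the members'. None of these differences was tested. Of the 6 vitellogenin genes, which encode yolk proteins made in the adult intestine, vit-2 (116) and vit-3 (95.6) had IDR peaks, with 55.8 and 42.2 in replicate 1 and 56.3 and 47.3 in replicate 2. No region lay in the promoter window of T20F7.1 itself in any list.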

How the data were processed

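Data were 4 deposited region lists on ce11 from ChIP-seq of 1 group with 2 replicates. The signal value and −log10 q of each region are as deposited by the authors. Summit offsets are another deposited quantity, taken from the region start. No source used here names the peak caller, the aligner or their versions. Positions are printed counted from 1. Chromosome lengths of WBcel235 were checked against the lists, and the first codon of all 76 members was ATG. Genes were from Ensembl release 115, on the 6 nuclear chromosomes, and sequence from the RefSeq assembly. Where a window held several summits, the strongest was used. The members and the 6 related lists, by name, were chosen with earlier results of these data known. Named genes were those with IDR peaks, the strongest candidates by signal value, ges-1, T20F7.1, genes sharing a summit and up to 3 of each related list, the strongest by IDR promoter peak. Others were chosen after their values were seen: regulators, cystatins and members named for position. No test was made, since 1 group gives none. The assignment was tested on simulated data with planted summits. Computations used Python 3.11.15, numpy 2.4.6 and pandas 2.3.3, and figures matplotlib 3.10.9. Alternatives were other windows, starts, peak sets, overlap criteria and single replicates.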

Additional observations from a re-analysis of the deposited data

How the results depend on the processing

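The count of 7 members with an IDR promoter peak was 4 with a window of 250 bp upstream to 50 bp downstream (asp-3, lys-8 and spp-5 lost), where the share of all genes was 4.54%. It was 1 in the stronger 50% of IDR peaks (spp-5 kept; 1.32%, against 4.77% of all genes) and 0 among IDR peaks with −log10 q of at least 2 (against 4.50%). For 1 replicate alone no IDR list was used, and its 2586 strongest candidates were taken in place of IDR peaks. Replicate 2 alone gave 5 members (6.58%, against 7.35% of all genes), with asp-3 and cpl-1 lost. Replicate 1 alone gave 8 (10.5%, against 7.32%), with cpl-1 and cpr-1 lost and ilys-5, spp-18 and spp-8 gained. The IDR count was 8 with 1000 bp upstream (10.5%, against 8.89%). It stayed at 7 (9.21%) with all transcript starts, the nearest start alone or any overlapping base. The share of all genes was then 7.91%, 5.85% and 8.33%, in this order. Members with a candidate in both replicates numbered 18 in place of 28 with the narrow window, against 9.70% of all genes. A pooled candidate was present at 33 members in the main count (43.4%, against 26.3% of all genes). A candidate of replicate 2 was present at 34 (44.7%, against 26.2%) and one of replicate 1 at 35 (46.1%, against 26.5%). Of the 426 related-list genes, 15 had an IDR peak (3.52%, against 7.31% of all genes). In the stronger 50% the count was 4 (0.939%, against 4.77%), and with the q limit it was 4 as well (against 4.50%). Among the strongest candidates of replicate 2 alone it was 11 (2.58%, against 7.35%), and of replicate 1 alone 10 (2.35%, against 7.32%). By family, the strongest candidates of replicate 1 alone gave 1 for cysteine proteases, 2 for lysozymes and 4 for saposin-like genes. The IDR counts of these families were 3, 1 and 2. Those of replicate 2 alone gave 0 for aspartic proteases, where the IDR count was 1. With the promoter searched from 500 bp upstream to 100 bp downstream, TGATAA was in 85.5% of members and 48.9% of all genes, and ACGCGC in 3 members (3.95%, against 10.2%). No paired analysis was possible because there is only 1 group. Without read counts, depth sets no limit that could be computed here.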
